A study of Arabidopsis thaliana with 13 samples.

Results

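Viable maternal excess, the cross of a tetraploid mother with a diploid father (4xX2x), gave high signals from 7 Arabidopsis loci that the RefSeq gene table (TAIR10.1) types as pseudogenes: AT3G30396, AT3G31955, AT2G12240, AT2G12300, AT2G10640, AT4G22450 and AT3G47320. They are 7 of 923 pseudogene loci with a single-gene probe set on the Affymetrix ATH1 array, and of 13513 single-gene probe sets in all. The loci were chosen for their level in 4xX2x, so their 4xX2x values, and the differences of those values from the other groups, are given as a description and were not tested. Tests on the loci were limited to contrasts between groups other than 4xX2x and 2xX2x, and the low values there were known when the loci were chosen. The table gives no detection calls, so a low signal is called low here and not absent.

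A pseudogene is a stretch of genome that resembles a gene or a transposable element but has lost the features needed to make a working protein. In Arabidopsis many annotated pseudogenes are remnants of transposons, which are usually kept silent by DNA methylation, repressive histone marks and small RNAs. The endosperm, the tissue that feeds the embryo, is where the dosage of maternal and paternal genomes matters most to seed growth. Its maternal DNA is actively demethylated beforehand, in the central cell of the ovule. The gene table gives none of the 7 loci a name or function, so none is described by a role.

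RNA came from whole siliques (the seed pods) on 13 arrays, 1 for each sample, with 2 biological replicates for each of 6 crosses and 1 array for msi1. In the name of a cross the mother's ploidy stands before that of the father. The mother of 4xX2x was tetraploid C24 carrying the A9-barnase transgene, which kills the tapetum and so makes the flower male sterile, and the father was diploid C24. In 6xX2x, lethal maternal excess, a hexaploid Col-1 mother without a transgene was pollinated by diploid C24. In 2xX4x, viable paternal excess, a diploid C24 A9-barnase mother was pollinated by tetraploid C24, and in 2xX6x, lethal paternal excess, the same kind of mother was pollinated by hexaploid Col-1. In fis1X2x a Ler mother homozygous for fis1-3, which lacks the Polycomb protein MEDEA, was pollinated by diploid C24. The msi1 siliques were not fertilised. Their label gives a homozygous msi1-2 mother in C24. The methods of the study describe male-sterile F1 plants from homozygous msi1 mutants crossed with diploid C24 carrying A9-barnase. The balanced cross 2xX2x had a diploid C24 A9-barnase mother and a diploid C24 father. Siliques were taken 5 days after pollination, and for msi1 7 days after flowering, and each sample pooled several plants.

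The silique wall and seed coat carry the mother's genome, so in 4xX2x they were tetraploid as well. The effect of the cross and of the tetraploid C24 seed stock used as mother cannot be told apart, since that stock was a mother in no other group. In whole siliques more cells with a transcript and more transcript in each cell cannot be told apart either. Tetraploid C24 was the father of 2xX4x, and on the arrays of that cross the 7 loci gave signals of 0.3 to 40.1.

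Array medians lay between 38.0 and 46.3 and the 40th percentiles between 22.2 and 29.8. In the control probe sets for actin, the ratio of 3' to 5' signal was 1.08 and 0.561 on the 4xX2x arrays, the lowest of the 13, and 1.75 to 17.3 on the others, with the highest on 6xX2x replicate 1. For GAPDH it was 0.977 and 0.922 on the 4xX2x arrays and 0.838 to 2.06 on the others. The part of this ratio in the signals of the 7 loci was not tested. Of 69 genes listed for silencing pathways and cell types, 9 had a single-gene probe set, so that the tissue label could be checked only in part. BAN, an anthocyanidin reductase gene of the seed coat, had 1290.1 and 1665.0 on the 4xX2x arrays and 744.8 and 1607.5 on the 2xX2x arrays. ANX1, a pollen tube receptor kinase gene, stayed between 0.5 and 2.4 on all 13 arrays. The other measured pollen markers were higher, ANX2 at 0.5 to 17.2 and TUA1 at 56.7 to 167.7, so the pollen markers do not give a single reading. No embryo or silique wall marker of the list had a single-gene probe set.

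The signals of AT3G30396, AT3G31955 and AT2G12300 were high on both 4xX2x arrays and at most 15.2 on all others. AT3G30396 had 252.2 and 205.3 on the 4xX2x arrays, 9.7 and 4.6 in 6xX2x, 4.5 and 3.2 in 2xX4x, 4.2 and 3.5 in 2xX6x, 11.8 and 5.9 in fis1X2x and 12.5 in msi1, against 2.9 and 4.2 in 2xX2x. AT3G31955 had 143.1 and 153.4 on the 4xX2x arrays, 3.4 and 3.8 in 6xX2x, 1.9 and 1.2 in 2xX4x, 1.6 and 1.5 in 2xX6x, 14.0 and 10.8 in fis1X2x and 1.5 in msi1, against 4.3 and 1.0 in 2xX2x. AT2G12300 had 178.3 and 194.3 on the 4xX2x arrays, 10 and 3.5 in 6xX2x, 4.4 and 1.7 in 2xX4x, 10 and 5.5 in 2xX6x, 15.2 and 2.9 in fis1X2x and 1.6 in msi1, against 4.3 and 4.7 in 2xX2x. For each of the 3 loci the 4xX2x arrays did not overlap any other group. The lower 4xX2x array was 16.4 times the highest other array for AT3G30396 (msi1), 10.2 times for AT3G31955 (fis1X2x replicate 1) and 11.7 times for AT2G12300 (fis1X2x replicate 1).

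AT2G12240 belongs with them by its 4xX2x level but varied more elsewhere. It had 225.2 and 292.6 on the 4xX2x arrays, 21.1 and 7.3 in 6xX2x, 15.8 and 3.5 in 2xX4x, 8.9 and 5.8 in 2xX6x, 4.5 and 2.8 in fis1X2x and 6.9 in msi1, against 17.2 and 3.5 in 2xX2x. In each of the 5 replicated groups other than 4xX2x, replicate 1 was higher than replicate 2. The lower 4xX2x array was 10.7 times the highest other array.

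AT2G10640 and AT4G22450 started from a higher base. AT2G10640 had 230.8 and 225.4 on the 4xX2x arrays, 29.2 and 21.2 in 6xX2x, 15.5 and 18.4 in 2xX4x, 17.6 and 16.5 in 2xX6x, 30.5 and 6.1 in fis1X2x and 25.3 in msi1, against 20.7 and 21.9 in 2xX2x. AT4G22450 had 252.2 and 266.3 on the 4xX2x arrays, 20.6 and 20.4 in 6xX2x, 19.1 and 40.1 in 2xX4x, 20.9 and 15.0 in 2xX6x, 26.6 and 23.0 in fis1X2x and 25.8 in msi1, against 32.9 and 27.7 in 2xX2x. Neither overlapped between 4xX2x and the rest, with the lower 4xX2x array at 7.39 and 6.29 times the highest other array. AT4G22450 was the only one of the 7 that passed the filter on low signals, above the 40th percentile on at least 2 arrays, without the 4xX2x arrays.

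AT3G47320 was the lowest of the 7 in 4xX2x and the one whose 4xX2x replicates disagreed. It had 99.2 and 38.7 on the 4xX2x arrays, 0.5 and 3.1 in 6xX2x, 0.3 and 0.4 in 2xX4x, 0.8 and 2.2 in 2xX6x, 8.4 and 0.7 in fis1X2x and 1.3 in msi1, against 1.2 and 0.7 in 2xX2x. The 4xX2x arrays were again above all others, the lower by 4.61 times. Replicate 1 was 2.56 times replicate 2 in 4xX2x, whereas the ratio lay between 0.77 and 1.23 for the other 6 loci.

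**Figure D1:**
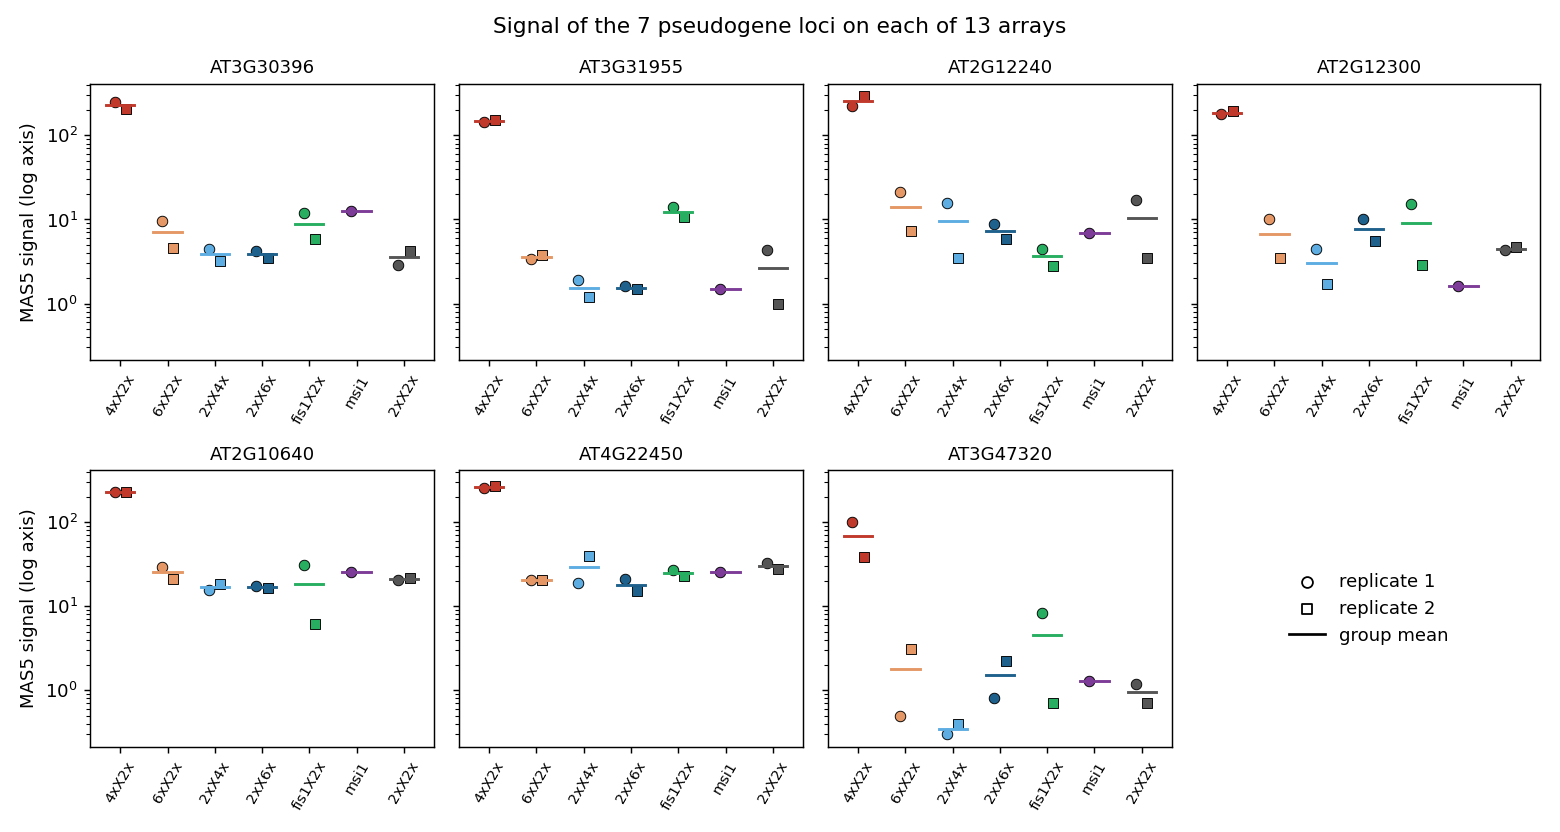
MAS5 signal (log axis, arbitrary units) of the 7 pseudogene loci on each of 13 arrays, by group, with circles for replicate 1, squares for replicate 2 and a line at the group mean. In every panel both 4xX2x arrays sit above the other 11, at 38.7 to 292.6 against 0.3 to 40.1.

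Summed over the 7 loci the signal was 1381 and 1376 on the 4xX2x arrays and between 50.0 and 111 on each of the other 11. The near equality of the sums hides opposite differences between replicates, since AT3G47320 and AT3G30396 were higher on replicate 1 and AT2G12240 on replicate 2. Placed among all probe sets of its own array, a measure that does not depend on scaling, each of the 6 loci other than AT3G47320 stood between percentiles 77.7 and 89.8 in 4xX2x, and AT3G47320 at 69.4 and 47.6. On the other 11 arrays the 7 loci stood between percentiles 0.594 and 48.5, and 72 of 77 values lay below the 40th.

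The spread between replicates was large relative to the level in some of the low groups and small in others. AT2G10640 averaged 18.3 ± 17.3 in fis1X2x (SD, n = 2), and AT2G12240 averaged 14.2 ± 9.76 in 6xX2x and 10.3 ± 9.69 in 2xX2x (SD, n = 2 each). Replicates were close for AT2G10640 in 2xX2x, at 21.3 ± 0.849, and for AT4G22450 in 6xX2x, at 20.5 ± 0.141 (SD, n = 2 each). In order of mean level, 4xX2x came first for each locus, and the groups below it came in a different order at each. The group in the second place was msi1 for AT3G30396 and AT2G10640, fis1X2x for AT3G31955, AT2G12300 and AT3G47320, 6xX2x for AT2G12240 and 2xX2x for AT4G22450. Of 35 pairs of groups that were neighbours in this order below 4xX2x, 27 overlapped and 8 did not. The pairs were formed by sorting on the same values, and msi1 has 1 array. The share over all probe sets was not worked out, so nothing is read from the count. Among the 8 was fis1X2x above 6xX2x for AT3G31955, where both fis1X2x arrays, with a mean of 12.4 ± 2.26, were above all arrays but those of 4xX2x. The next group of AT3G31955, 6xX2x, averaged 3.6 ± 0.283 and 2xX2x averaged 2.65 ± 2.33 (SD, n = 2 each).

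On the scale of log2(signal + 7.4), which shrinks the change of low signals, the 4xX2x mean exceeded that of 2xX2x by 4.43 ± 0.40 for AT3G30396 (SE from limma, n = 2 arrays a group). The difference was 4.02 ± 0.48 for AT2G12300, 4.01 ± 0.53 for AT2G12240 and 3.97 ± 0.42 for AT3G31955. It was 3.07 ± 0.60 for AT3G47320, 3.04 ± 0.42 for AT2G10640 and 2.83 ± 0.31 for AT4G22450. All 7 were past a log2 difference of 1, which 580 of the 15982 probe sets kept by the filter also were, or 3.63 percent, and the loci were chosen from this contrast, so nothing is read from the count. Of all 22746 probe sets, both 4xX2x arrays were above all 11 others for 716, or 3.15 percent, and over 4 times above for 34, or 0.149 percent.

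The 7 loci made up all the single-gene pseudogene loci among those 34 probe sets. The rest were 11 single-gene probe sets of protein-coding loci, 14 with no gene in the annotation and 2 with several. The same criterion on both arrays of another group gave 16 probe sets in 6xX2x with 1 pseudogene locus, 11 in fis1X2x with 2, 3 in 2xX6x with none, and 0 in 2xX4x and in 2xX2x. The members were picked with such values in view, so the counts describe the table and do not test it.

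Differences of the 7 loci among 6xX2x, 2xX4x, 2xX6x and fis1X2x were examined with contrasts that compare none of the 4xX2x or 2xX2x arrays, although those arrays still entered the fit through the estimate of the spread and its trend with mean level. The 4xX2x arrays also decided which loci were fitted, since 6 of the 7 passed the filter only through them. On the other 11 arrays 72 of 77 values lay below the 40th percentile, so the lack of a call for these 6 loci follows largely from how they were chosen and is not a result about them. With 2 replicates a group, the p-values set each difference against a spread between replicates that limma pooled over the 12 arrays and moderated.

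AT4G22450, the only locus that passed the filter on the other arrays, differed by -0.50 ± 0.31 on the log2 scale in 2xX6x against 2xX4x, by -0.10 ± 0.27 in 6xX2x against the mean of 2xX4x and 2xX6x and by 0.35 ± 0.31 in fis1X2x against 2xX6x. The adjusted p from limma (Benjamini-Hochberg over all 15982 kept probe sets) was 1, 0.865 and 0.835 in these contrasts, which called 0.338, 6.62 and 0.194 percent of probe sets. The 95% intervals of the log2 difference were -1.19 to 0.20, -0.70 to 0.50 and -0.34 to 1.05 in the same order. The moderated F test of any difference among 6xX2x, 2xX4x, 2xX6x and fis1X2x, which called 4.52 percent, gave AT4G22450 an adjusted p of 0.726.

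AT3G31955 passed the filter only through the 4xX2x arrays, so its values here are a description and not a test result. It was 1.14 ± 0.42 higher on the log2 scale in fis1X2x (14.0 and 10.8, against 1.6 and 1.5 in 2xX6x), with a 95% interval of 0.22 to 2.07. Its unadjusted p from limma was 0.0201 and its adjusted p 0.513, so it failed the correction, and 8.01 percent of all kept probe sets had an unadjusted p under 0.05 in this contrast. The fis1-3 mutation, the accessions of both parents and the father's ploidy differ together in this contrast and cannot be told apart. The 2xX6x mother also carried A9-barnase, which is not given for the fis1X2x mother. All signals of AT3G31955 in both groups lay below the 40th percentile of their arrays. Of the 21 intervals of the 7 loci in the 3 contrasts, only that of AT3G31955 given above left out 0. For the 6 loci that passed the filter only through the 4xX2x arrays, neither these intervals nor the adjusted p that follow are a result. The adjusted p of the 7 loci lay between 0.537 and 0.908 in 6xX2x against paternal excess, was 1 in 2xX6x against 2xX4x, and lay between 0.513 and 0.994 in fis1X2x against 2xX6x and between 0.309 and 0.934 in the F test.

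**Figure D2:**
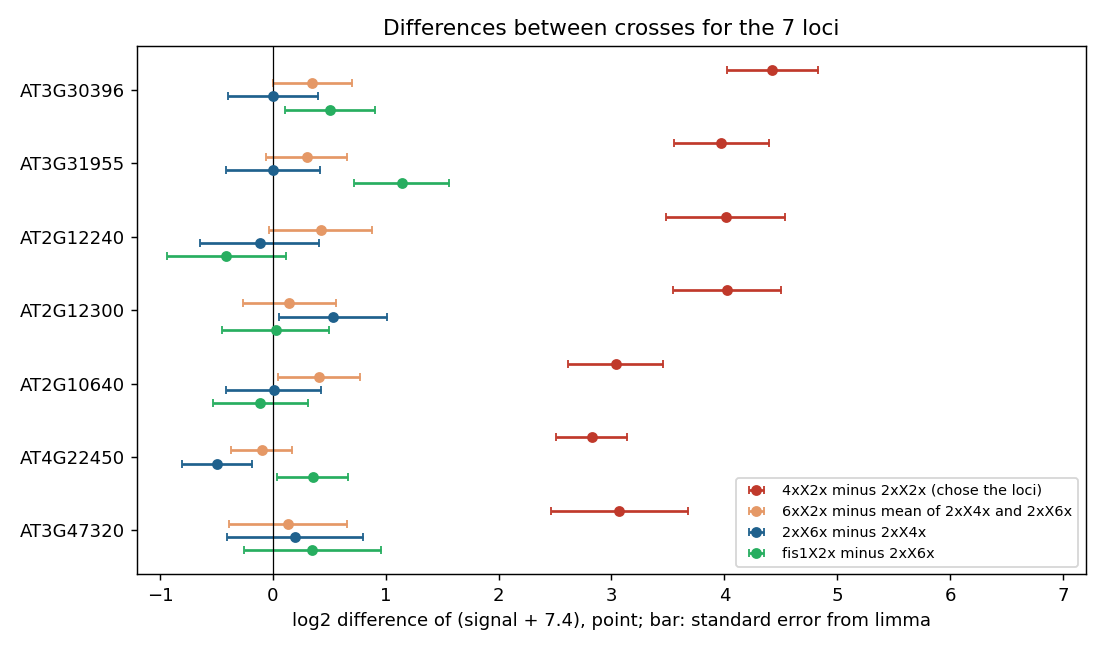
Log2 difference of signal + 7.4 for each of the 7 loci in 4 contrasts, with bars for the standard error from limma. The 4xX2x minus 2xX2x values, which chose the loci, lie between 2.83 and 4.43, and the other 3 contrasts lie between -0.50 and 1.14.

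All members but AT3G47320 were measured by probe sets that Affymetrix marks as able to match several transcripts. Of the 7, 4 carry the suffix for cross-matching probes (AT3G30396, AT2G12240, AT2G12300 and AT2G10640), 2 the suffix for probes shared by several transcripts (AT3G31955 and AT4G22450) and 1 is unmarked. Marked probe sets are 4.66 percent of all and 20.5 percent of the 923 pseudogene probe sets. A signal of a marked probe set may come from another copy of the same repeat, so it cannot be assigned to the named locus alone. Among the other kept probe sets, those with the cross-matching suffix had a median 4xX2x minus 2xX2x difference of -0.37 (29 probe sets, 1 past log2 1), those with the shared suffix -0.05 (557, of which 19) and unmarked ones -0.02 (15389, of which 553).

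AT3G31955, AT3G30396 and AT3G47320 lie on chromosome 3, AT2G12240, AT2G12300 and AT2G10640 on chromosome 2, and AT4G22450 on chromosome 4. The files name no genome build, so no coordinates are given. In the gene order of TAIR10.1 5 loci separate AT2G12240 from AT2G12300. On 4xX2x replicate 2 the probe sets of chromosome 2 had a median 0.20 lower than those of other chromosomes, and those of chromosome 3 0.13 higher, on the log2 scale, whereas on replicate 1 the shifts were -0.01 and 0.02. Their part in the signals of the 7 loci was not tested.

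The nearest measured loci showed no difference of that size between 4xX2x and 2xX2x. Each member had a locus with a single-gene probe set on either side, 14 in all, 10 of them pseudogenes, and their 4xX2x minus 2xX2x differences lay between -0.29 and 0.88. Only 3 passed the filter, and the offset shrinks the differences of signals as low as those of the rest. These 3 were not called by limma, where 2.18 percent of all kept probe sets were called. Over all kept probe sets only 3.63 percent were higher by at least 1 on the log2 scale. Nothing is therefore read from the small differences of the 14 neighbours. AT3G30390, a protein-coding locus before AT3G30396, had 1229.5 and 1252.5 in 4xX2x and 1144.9 and 1144.3 in 2xX2x (adjusted p = 0.954). AT2G12250, a pseudogene next to AT2G12240, had 41.3 and 27.3 in 4xX2x and 23.4 and 17.4 in 2xX2x (adjusted p = 0.817). AT3G47310, a pseudogene next to AT3G47320, had 30.1 and 52.1 in 4xX2x and 41.7 and 50.9 in 2xX2x (adjusted p = 0.914). The groups overlapped for AT3G47310, whereas both 4xX2x arrays were above both 2xX2x arrays for AT3G30390 and AT2G12250. The share of all probe sets separated in this way was not worked out, so nothing is read from such separations. On the other side of AT3G47320, AT3G47330 had 15.7 and 18.7 in 4xX2x and 8.5 and 3.8 in 2xX2x, the largest of the 14 differences. It lay below the filter, with no overlap between the groups. Also below the filter, both 4xX2x arrays were above both 2xX2x arrays for AT2G12280 and AT2G10650 and below them for AT3G31940. AT3G30400, the neighbour after AT3G30396, had 5.1 and 11.2 in 4xX2x against 4.0 and 12.9 in 2xX2x.

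**Figure D3:**
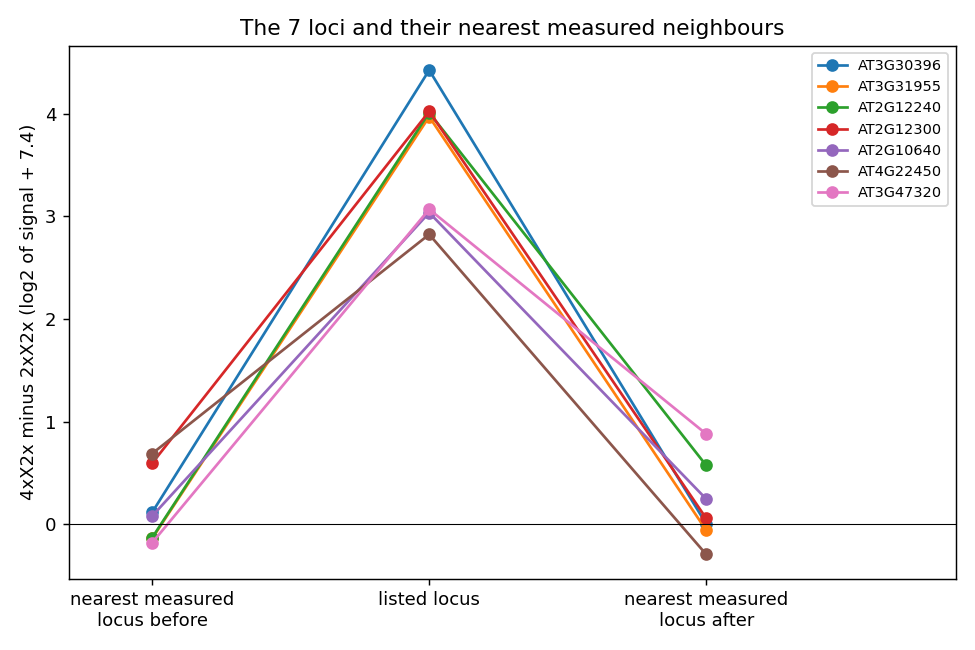
Log2 difference between 4xX2x and 2xX2x (signal + 7.4) for each of the 7 loci and for the nearest locus before and after it that has a single-gene probe set, joined by a line for each locus. The 7 loci lie between 2.83 and 4.43 and their 14 neighbours between -0.29 and 0.88. The filter was passed by 3 of the neighbours.

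Most of the other pseudogene loci were too low to be tested. Of 916, 69 passed the filter (7.53 percent, against 70.3 percent of all probe sets), and their median 4xX2x minus 2xX2x difference was -0.46, against -0.02 over all kept probe sets. In limma, 0 rose and 2 fell in 4xX2x, where 0.838 percent of all probe sets rose and 1.34 percent fell, so that counts this small are near the background. An unadjusted p under 0.05 in either direction was found for 12 of the 69, or 17.4 percent, against 12.1 percent of all kept probe sets. AT5G27900 had 1.5 and 1.6 in 4xX2x, against 53.7 and 42.9 in 2xX2x (log2 difference -2.63 ± 0.38, adjusted p = 0.00388). The call was lost when only the compared arrays were fitted (adjusted p = 0.0611). AT1G64270 had 10.3 and 8.7 in 4xX2x, against 51.8 and 47.6 in 2xX2x (-1.76 ± 0.31, adjusted p = 0.0128), and the call was lost in 5 of 20 alternatives, including the removal of any 1 of the 4 arrays compared.

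A few other pseudogene loci were higher in 4xX2x by over 1 on the log2 scale without a call. AT1G43590 had 132.2 and 66.6 in 4xX2x against 12.6 and 37.5 in 2xX2x (adjusted p = 0.114 by limma). AT5G34920 had 108.2 and 100.2 in 4xX2x, 69.3 and 56.4 in 2xX4x and 53.0 in msi1, against 43.4 and 27.9 in 2xX2x (adjusted p = 0.137 for 4xX2x against 2xX2x). The 2 remaining, AT2G13160 and AT4G08220, had adjusted p of 0.0969 and 0.0982. None of the 4 reached the separation of the 7, which were chosen for their 4xX2x level. For AT2G13160 and AT4G08220, 4xX2x overlapped other groups. For AT1G43590 and AT5G34920 the lower 4xX2x arrays, 66.6 and 100.2, were not far above the highest other arrays, 39.2 and 69.3.

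**Figure D4:**
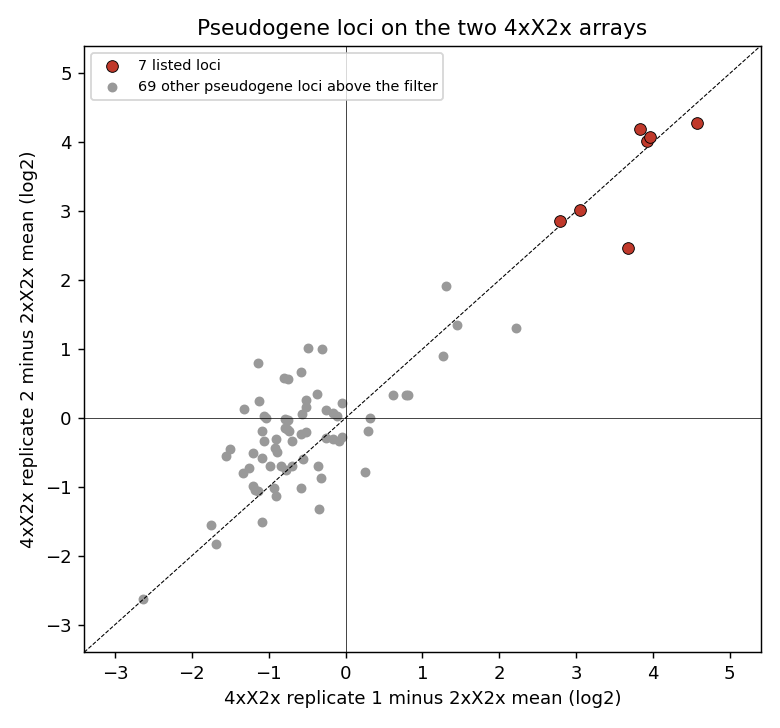
Log2 difference from the 2xX2x mean (signal + 7.4) on 4xX2x replicate 1 (horizontal) and replicate 2 (vertical) for the 7 loci (red) and the 69 other pseudogene loci that passed the filter (grey), with a dashed line of equality. The 7, which were chosen for their 4xX2x level, stand apart at the upper right. AT3G47320, 1 of them, lies off the line with a ratio of 2.56 between the replicates.

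Some other pseudogene loci were called in contrasts without 4xX2x. In 6xX2x against paternal excess, 3 were higher and 1 lower among 69, or 5.8 percent, near the 6.62 percent of all probe sets. AT1G35612 had 127.3 and 131.4 in 6xX2x, against 6.2 and 1.6 in 2xX4x and 3.5 and 2.9 in 2xX6x (log2 difference 3.66 ± 0.43, adjusted p = 0.000691 by limma), and was called in all 21 alternatives. AT1G35612 had 4.5 and 1.5 in 4xX2x and 29.9 and 68.9 in fis1X2x, against 9.0 and 31.4 in 2xX2x. It was not called in 4xX2x against 2xX2x. AT4G16870 had 97.1 and 127.1 in 6xX2x, against 27 and 27.6 in 2xX4x and 38.4 and 12.7 in 2xX6x (adjusted p = 0.0116), a call lost in 2 of 21 alternatives. AT2G23330 had 45.2 and 28.2 in 6xX2x, against 8.6 and 1.2 in 2xX4x and 1.3 and 8.5 in 2xX6x (adjusted p = 0.0468), a call lost in 15 of 20 alternatives.

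AT5G27900, which fell in 4xX2x, also fell in 6xX2x relative to paternal excess, with 11.9 and 2.0 in 6xX2x against 63.9 and 72.9 in 2xX4x and 60.5 and 43.1 in 2xX6x (log2 difference -2.31, adjusted p = 0.00205 by limma). The mother of 6xX2x was Col-1 without the A9-barnase transgene, so ploidy, accession and transgene cannot be told apart in that comparison. In the F test, 4 of the 69 were called, AT1G35612, AT5G27900, AT4G16870 and AT5G34920, with adjusted p of 0.00262, 0.00791, 0.0277 and 0.0324. The last call was lost in 12 of 21 alternatives and that of AT4G16870 in 9. In 2xX6x against 2xX4x and in fis1X2x against 2xX6x, 0 of 69 were called by limma, with 3 (4.35 percent) and 10 (14.5 percent) at an unadjusted p under 0.05, against 3.67 and 8.01 percent of all kept probe sets.

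The genes of silencing and demethylation pathways could be followed only in part. Of 44 listed, 3 had a single-gene probe set that passed the filter, H1.1, H1.2 and DME, with 5 probe sets between them. None of the 5 was called by limma in any of the contrasts, and an unadjusted p under 0.05 was found for 0 of 5 in 4xX2x against 2xX2x (12.1 percent of all kept probe sets) and for 2 of 5 in 6xX2x against paternal excess (23.6 percent), for 0 of 5 in 2xX6x against 2xX4x (3.67 percent) and in fis1X2x against 2xX6x (8.01 percent), and for 1 of 5 in the F test (17.7 percent). H1.1, a linker histone gene, had 472.5 and 867.8 in 4xX2x against 504.5 and 505.6 in 2xX2x. DME, the glycosylase gene that demethylates maternal DNA in the central cell of the ovule, was measured by 3 probe sets, with 4xX2x minus 2xX2x differences of -0.83, 0.22 and 0.27 on the log2 scale. Among the tissue markers, AGL62, an endosperm MADS-box gene, had 3.2 and 10.7 in 4xX2x against 8.6 and 4.7 in 2xX2x. The groups overlapped for H1.1, AGL62 and 1 of the DME probe sets. The share of all probe sets that overlapped was not worked out, so nothing is read from this. The other DME probe sets gave 16.8 and 17.6 in 4xX2x against 46.7 and 27.7 in 2xX2x, and 86.6 and 67.0 in 4xX2x against 64.4 and 64.7 in 2xX2x.

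Likeness between profiles rested on the 4xX2x arrays, which chose the loci. Over 13 arrays the pairwise Pearson correlation of their log2 signals lay between 0.879 and 0.964 (21 pairs, median 0.939). Over the 11 other arrays it lay between -0.285 and 0.644 with a median of 0.234. Among the single-gene probe sets, AT3G52550 was most like the mean standardised profile (r = 0.967). It had 235.2 and 296.9 in 4xX2x and 12 to 34.6 on the other arrays. Next were AT3G63360 (r = 0.956), with 41.5 and 31.6 in 4xX2x and 0.6 to 6.1 elsewhere, AT1G62410 (0.948), AT1G27461 (0.947) and AT2G18620 (0.942). Over the 11 arrays other than 4xX2x the correlation of these 5 genes with the members' profile lay between -0.483 and 0.318. Over all 13, AT3G52550 was also the closest to AT2G12240 (0.971), AT2G10640 (0.97) and AT2G12300 (0.964), and AT3G63360 to AT4G22450 (0.978). AT3G30396 was closest to AT2G12300 (0.964), AT3G31955 to AT3G30396 (0.964) and AT3G47320 to AT3G30396 (0.957). The disagreement between 4xX2x replicates seen for AT3G47320 was not limited to it. The protein-coding AT2G28490, one of the 11 that exceeded all other arrays 4 times over, had 166.8 and 56.8 in 4xX2x, a ratio of 2.94.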

How the data were processed

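Arabidopsis siliques were hybridised to Affymetrix ATH1 arrays, 1 array for each of 13 samples. The deposited intensity values are linear MAS5 signals, scaled by the authors so that the trimmed mean of every array is 100.01. The version of the software is not given in the sources used here. The table holds 22810 probe sets, of which 64 controls were left out and 63 values are 0. By the platform annotation 13513 probe sets have 1 gene, 503 have more than 1 and 8730 have no gene. Gene type and neighbour order came from the RefSeq gene table (TAIR10.1), which has a locus for 13484 of these single genes. No detection calls or array comparisons of the authors were used.

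Signals were analysed as log2(signal + 7.4), the offset being the 20th percentile, and a probe set stayed in if it exceeded the 40th percentile on 2 arrays or more (15982 stayed, 6764 were dropped; 7 members stayed, 6 of them only through the 4xX2x arrays). A mean per group was fitted to the 12 replicated arrays with limma 3.58.1 in R 4.3.3 (eBayes with trend, 6 residual and 4.92 prior degrees of freedom). Tests were two-sided with Benjamini-Hochberg adjustment over the kept probe sets and a threshold of 0.05. Tables and figures were made in Python 3.11.15 with matplotlib 3.10.9, numpy 2.4.6 and pandas 2.3.3. The fit was tested on simulated data. Actin and GAPDH ratios use the newer of the 2 sets of control probe sets.

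The members and the gene lists were chosen with earlier results of these data known. The members were chosen for their 4xX2x signals, so contrasts of 4xX2x were tested only for other genes. Named beside the 7 are up to 4 called genes of each list and of the other pseudogene loci in each contrast, the genes most correlated with the members and the nearest measured neighbours. Loci named outside this rule, among them AT2G28490, the 4 pseudogene loci higher in 4xX2x without a call and the marker genes, were chosen after their values were seen. Alternatives were the offset, the filter, normalization, array weights, the arrays in the fit, a block for the replicate number and the removal of each array.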

Additional observations from a re-analysis of the deposited data

How the results depend on the processing

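All 7 loci kept a 4xX2x minus 2xX2x difference over 1 on the log2 scale under every alternative, except that AT3G47320 was not kept by the 60th percentile filter, which left 6. The differences ran from 3.10 to 6.16 with no offset, 2.31 to 3.73 with an offset 2 times as large, and 2.47 to 4.60 otherwise. Counts over all probe sets moved more. For 4xX2x against 2xX2x, 348 fell to 87 when only the compared arrays were fitted and ranged from 138 to 355 with 1 array left out (138 without 4xX2x replicate 1, 210 and 196 without a 2xX2x array). For 6xX2x against paternal excess, 1058 became 689 with array weights and 310 to 1185 with 1 array left out (310 without 6xX2x replicate 1, 524 and 448 without a 2xX4x array, 495 without 2xX6x replicate 1). For 2xX6x against 2xX4x, 54 became 17 with no offset, 123 with array weights and 0 to 59 with 1 array left out. For fis1X2x against 2xX6x, 31 became 15 with only the compared arrays and 12 to 41 with 1 left out. The F test gave 723, and 335 to 749 with 1 left out. The cause of these changes was not tested.

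With the replicate number as a block the counts were 375, 1195, 50, 38 and 750 in the same order. Same-numbered samples of 15 pairs of groups had correlated deviations of -0.237 to 0.412, over 0.1 in 6. The highest were 0.412 for 2xX6x and 2xX2x, 0.342 for 2xX4x and 2xX2x and 0.285 for 2xX4x and 2xX6x. The main fit did not treat the numbers as pairs, and whether these crosses shared a replicate batch was not tested. With 2 arrays a group and no detection calls, signals near the bottom of the scale have no firm order.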
